A study of Mus musculus with 6 samples.

Results

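The 10 genes described here, Cldn5, Cdh5, Pecam1, Flt1, Kdr, Tek, Slc2a1, Mfsd2a, Slco1a4 and Ly6c1, are genes of brain endothelial cells and of the blood-brain barrier. They were chosen by name as a set of known endothelial genes, with results of these libraries already known, and they are 10 of the 37315 gene identifiers in the count files. Counts came from 6 RNA-seq libraries of hippocampus from C57BL/6J mice at 4 weeks of age, in 3 experiments of 1 control and 1 altered library each. In the Nestin-Cre pair, Prrc2a flox/flox mice (f/f) without Cre were compared with f/f mice carrying Nestin-Cre, whose recombinase acts in neural progenitors and their descendants. In the Olig2-Cre pair, f/f mice without Cre were compared with f/f mice carrying Olig2-Cre, which is expressed from the endogenous Olig2 promoter, so that these mice also lack 1 working Olig2 copy and their controls do not. In the Fto pair, wild-type (WT) mice were compared with Fto Tg mice, whose lentiviral Fto transgene is driven by the ubiquitin C promoter. Prrc2a binds N6-methyladenosine in RNA and Fto removes this mark. The titles name both f/f controls WT, whereas their genotype label is flox/flox, and the labels do not say whether mice were pooled. Each group had 1 library, so differences within pairs have no replicate check, and the 95% intervals given here cover counting error only.

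Endothelial cells line the vessels of the brain, and in this organ they form a barrier: tight junctions seal the gaps between neighboring cells, little material is carried across in vesicles, and dedicated transporters move glucose, lipids and organic anions. Vascular endothelial growth factor (VEGF) and angiopoietin receptors on the same cells control growth and stability of the vessels, and Wnt signals from neural cells induce and maintain the barrier genes. These cells are a small fraction of hippocampal tissue, and in bulk RNA a lower value can mean fewer endothelial cells or less RNA per cell, which cannot be told apart.

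The total counts ranged from 18616540 to 35482589, and the limit of 3 counts corresponded to 0.0845 to 0.161 counts per 1000000 counts (CPM). The Nestin-Cre library stood apart in composition: 26.2% of its counts fell on mitochondrial genes, compared with 7.97% to 8.86% elsewhere, and the mean GC content of its counted transcripts was 45.7% against 48.5% to 49.2%. The targeted genes were checked first. Prrc2a was at 434 CPM in f/f and 184 CPM with Nestin-Cre, at 389 and 346 CPM in the Olig2-Cre pair, and at 351 and 334 CPM in the Fto pair, so that the Olig2-Cre value was not below that of Fto Tg. Fto was at 158 CPM in WT and 354 CPM in Fto Tg. All 6 hippocampal neuron markers had counts in every library, with a summed level of 6240 to 7935 CPM, and so did all 20 genes of a further list of endothelial identity genes.

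The promoters of 8 of the 10 genes were found in RefSeq sequence tables of GRCm38.p6. The 250 bases upstream of the start are shown for Cldn5 and Flt1, the gene with the lowest ratio in the Nestin-Cre pair and a gene whose ratio there was close to 0, with every GGAA or its complement TTCC in capitals. GGAA is the core bound by ETS factors, the family of the endothelial regulators Erg and Fli1.
Cldn5 (chr16:18776597-18776846, plus strand): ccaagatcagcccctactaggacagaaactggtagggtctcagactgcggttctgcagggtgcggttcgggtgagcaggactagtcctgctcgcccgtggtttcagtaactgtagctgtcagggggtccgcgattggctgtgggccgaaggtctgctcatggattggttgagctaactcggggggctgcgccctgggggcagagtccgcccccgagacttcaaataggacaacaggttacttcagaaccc
Flt1 (chr5:147726012-147726261, minus strand): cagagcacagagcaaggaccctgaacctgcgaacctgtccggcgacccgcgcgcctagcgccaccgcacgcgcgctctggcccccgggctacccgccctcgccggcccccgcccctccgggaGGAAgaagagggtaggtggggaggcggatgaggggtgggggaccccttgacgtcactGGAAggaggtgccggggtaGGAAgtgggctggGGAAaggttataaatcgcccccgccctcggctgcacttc
The Cldn5 stretch had 0 matches on either strand and the Flt1 stretch had 4. Slc2a1 also had 0, Tek and Mfsd2a had 2, and Kdr, Slco1a4 and Ly6c1 had 4. The motif is common, since 93.4% of 27025 mouse promoter stretches of this length held it on either strand, with a median of 3. A match is a run of letters and not evidence of binding.

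In GRCm38, Cldn5 (ENSMUSG00000041378) lies at chr16:18776847-18778262 on the plus strand and has no intron, its 1416 bases of exon filling the gene. Cdh5 (ENSMUSG00000031871) spans chr8:104101625-104144511 on the plus strand. Slc2a1 (chr4:119108711-119137983, plus) and Mfsd2a (chr4:122946850-122961188, minus) share chromosome 4 with Tek (chr4:94739289-94874976, plus), and Flt1 (chr5:147561604-147726011, minus) shares chromosome 5 with Kdr (chr5:75932827-75978458, minus). Pecam1 lies at chr11:106654217-106750628, Slco1a4 at chr6:141805440-141856199 and Ly6c1 at chr15:75044018-75048830, all on the minus strand. Counts are sums over the exons of a gene and do not separate transcripts.

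The genes differed in level by more than 10-fold. Levels are compared between genes in RPKM (CPM per kilobase of exon), calculated from the deposited counts and the union of exons, as mean ± SD of the 3 control libraries (n = 3, from different experiments). Slc2a1, the glucose transporter Glut1 of the barrier, was highest at 28.8 ± 5.53 RPKM. Ly6c1, a surface protein of endothelial and some blood cells, followed at 17.5 ± 2.16, the tight junction protein Cldn5 at 15.7 ± 1.76, and Mfsd2a, a transporter of lysophospholipids that also restrains vesicle transport, at 12.9 ± 2.40. Slco1a4, an organic anion transporter, was at 10.1 ± 2.09 RPKM. A gap separated these 5 genes from the receptors and adhesion proteins. Flt1, VEGF receptor 1, was at 4.93 ± 0.446, Cdh5 (VE-cadherin of the adherens junction) at 3.11 ± 0.117, and Tek, the angiopoietin receptor Tie2, at 2.96 ± 0.121 RPKM. Pecam1, an adhesion protein at endothelial cell contacts, was at 2.40 ± 0.165, and Kdr, VEGF receptor 2, at 2.07 ± 0.453 RPKM. In this order, the control ranges of Slc2a1 and Ly6c1, of Slco1a4 and Flt1, of Flt1 and Cdh5, and of Tek and Pecam1 did not overlap, whereas all other neighbors overlapped.

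**Figure D1:**
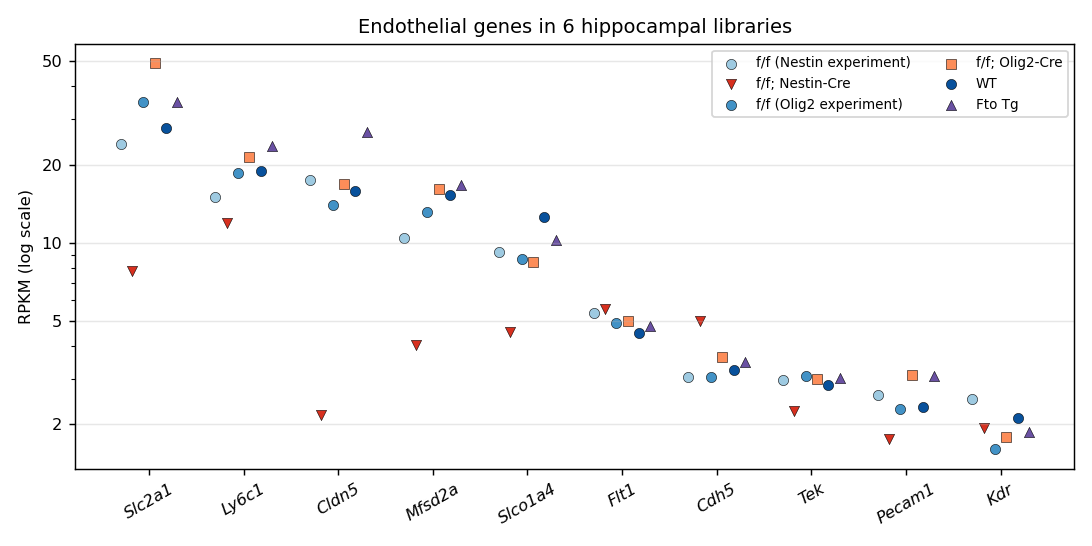
RPKM on a log scale of the 10 genes in each of the 6 libraries, ordered by the mean of the 3 control libraries (blue circles), with 1 point per library. The Nestin-Cre library (red triangle) lies far below the other points for Cldn5, Slc2a1, Mfsd2a and Slco1a4 and above them for Cdh5.

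The plot of RPKM by library shows that the Nestin-Cre library was the lowest of the 6 for 7 genes and the highest for Flt1 and Cdh5. Within a gene, levels are given from here on in CPM. The transmembrane junction genes behaved in opposite ways in that library. Cldn5 was at 24.7 CPM in f/f and 3.08 CPM with Nestin-Cre, at 19.7 and 23.8 CPM in the Olig2-Cre pair, and at 22.3 CPM in WT and 37.7 CPM in Fto Tg. The Nestin-Cre value, from 107 counts against 876, lay below all other libraries, and the Fto Tg value above all of them. Cdh5 was at 12.8 CPM in f/f and 21.0 CPM with Nestin-Cre, at 12.8 and 15.3 CPM in the Olig2-Cre pair, and at 13.7 and 14.6 CPM in the Fto pair. All 3 altered libraries were above all 3 controls, with the Nestin-Cre library highest. Pecam1 was at 16.1 and 10.99 CPM in the Nestin-Cre pair, at 14.2 and 19.2 CPM in the Olig2-Cre pair, and at 14.5 and 19.1 CPM in the Fto pair. It was lowest with Nestin-Cre, and the Olig2-Cre and Fto Tg libraries were both above the controls.

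Among the receptors, values of the 6 libraries lay closer together. Flt1 was at 72.6 and 75.3 CPM in the Nestin-Cre pair, at 66.4 and 67.5 CPM in the Olig2-Cre pair, and at 60.6 and 64.6 CPM in the Fto pair. Each altered library was slightly above its own control, by less than the difference between the 3 controls. Kdr was at 22.6 and 17.5 CPM in the Nestin-Cre pair, at 14.5 and 16.2 CPM in the Olig2-Cre pair, and at 19.1 and 16.9 CPM in the Fto pair, and all 3 altered libraries were within the range of the controls. Tek was at 14.0 and 10.6 CPM, 14.5 and 14.1 CPM, and 13.3 and 14.2 CPM in the same order of pairs, with only the Nestin-Cre library outside the controls.

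The transport genes varied more. Slc2a1 was at 84.0 CPM in f/f and 27.3 CPM with Nestin-Cre, at 122 and 172 CPM in the Olig2-Cre pair, and at 96.6 and 122 CPM in the Fto pair. The Nestin-Cre library was lowest and the Olig2-Cre library highest. Mfsd2a was at 23.5 and 9.12 CPM in the Nestin-Cre pair, at 29.6 and 36.2 CPM in the Olig2-Cre pair, and at 34.2 and 37.6 CPM in the Fto pair, again lowest with Nestin-Cre. Slco1a4 was at 59.1 and 29.1 CPM, 55.6 and 53.9 CPM, and 80.4 and 65.8 CPM in the same order. The WT library was its highest and the Nestin-Cre library its lowest. Ly6c1 was at 25.2 and 19.9 CPM in the Nestin-Cre pair, at 31.1 and 35.7 CPM in the Olig2-Cre pair, and at 31.7 and 39.7 CPM in the Fto pair. Its 3 altered libraries were all outside the controls, below with Nestin-Cre and above with Olig2-Cre and in Fto Tg. The summed level of the 10 genes was 224 CPM with Nestin-Cre and 355 to 454 CPM in the other libraries.

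Reads shared with related genes could affect Ly6c1, Slco1a4 and Flt1, since reads that matched several places were discarded. Their relatives were scarce here: Ly6c2 had 0 to 3 counts per library, Slco1a1 0 to 1, Slco1a5 8 to 52, Slco1a6 3 to 35 and Flt4 66 to 119. How many Ly6c1 or Slco1a4 reads were lost as ambiguous is unknown.

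For each pair, a gene was called by a test on the reads of the 2 libraries (false discovery rate (FDR) under 0.001 and a fold of at least 1.2), which compares those libraries and not the genotypes. In the Nestin-Cre pair, 8 of the 10 genes were called lower and 1 higher. Over all 18170 genes tested, 53.4% were called lower and 11.5% higher by the same rule. The median log2 ratio was -0.72 over all genes and -0.47 over the 10, of which 6 had a ratio above the median of all genes.

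The 10 ratios ran from -3.00 to 0.71 on the log2 scale. Cldn5 had the lowest ratio, -3.00 (95% interval -3.31 to -2.71), a level 7.99-fold lower, and 95.8% of all genes had a higher ratio. Slc2a1 followed at -1.62 (-1.73 to -1.52) and Mfsd2a at -1.36 (-1.56 to -1.18), a 3.08-fold and a 2.57-fold lower level. Slco1a4 was at -1.02 (-1.13 to -0.91), still below the median of all genes. These 4 genes, the junction protein of the barrier and its transporters, were the 4 members below that median. Pecam1 (-0.55), Tek (-0.40), Kdr (-0.37) and Ly6c1 (-0.34) were called lower and yet lay above it. Flt1 was not called at 0.05 (-0.03 to 0.13). Cdh5 was called higher at 0.71 (0.54 to 0.88), a 1.64-fold higher level, and 90.3% of all genes had a lower ratio.

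**Figure D2:**
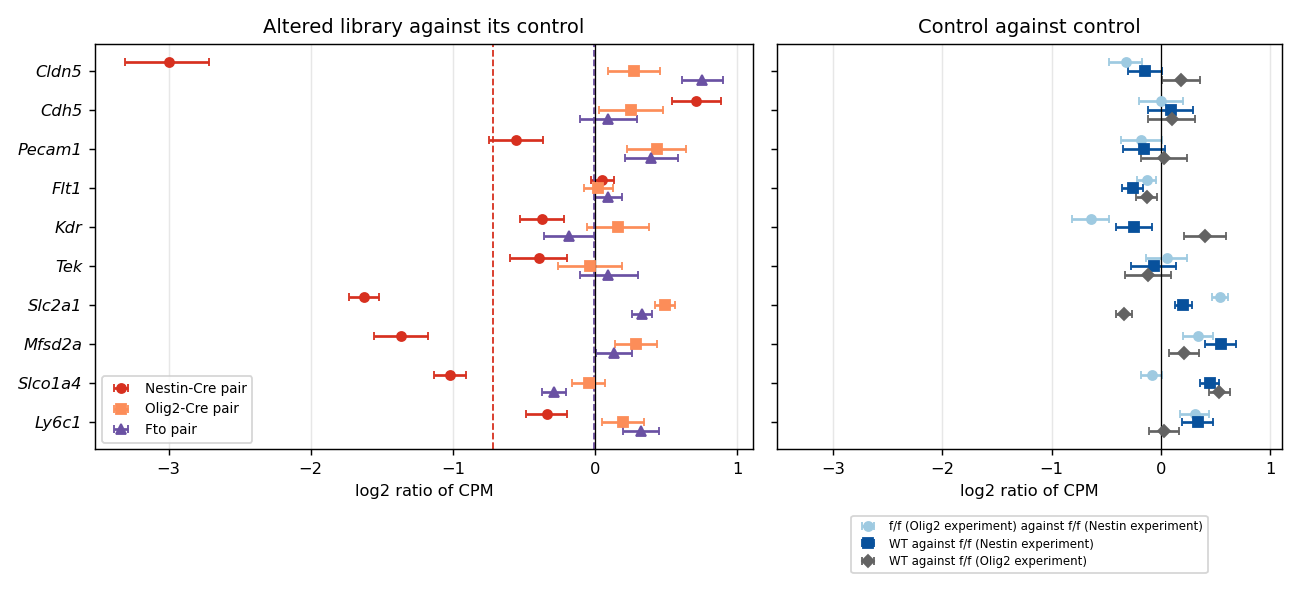
Log2 ratios of CPM of the 10 genes with exact 95% counting intervals, at the left for the 3 altered libraries against their own controls (dashed lines mark the median of all genes in each pair) and at the right between the control libraries. In the Nestin-Cre pair (red circles) the genes range from -3.00 for Cldn5 to 0.71 for Cdh5, while all other ratios lie between -0.64 and 0.75.

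The plot of log2 ratios shows the 10 genes in all 6 pairs over the same range of ratios. Which of them count as lower with Nestin-Cre depended on how the libraries were scaled. Trimmed mean (TMM) scaling raised the median of all genes in this pair by 0.68, and the 10 genes then had 4 called higher and 4 lower, where 28.5% of all genes were called higher and 30.1% lower. Cldn5 (-2.31), Slc2a1 (-0.94), Mfsd2a (-0.68) and Slco1a4 (-0.33) remained lower and Cdh5 (1.40) higher. Flt1 was called higher at 0.74, and Pecam1 (0.13), Tek (0.29), Kdr (0.31) and Ly6c1 (0.35) turned positive. An adjustment of all ratios for GC content and exon length mattered as much. The Cldn5 transcript has the highest GC content of the 10 (60.5%, 1416 bases of exon), and its ratio was -1.06 after the adjustment. Mfsd2a (54.2% GC) was then at -0.19 and no longer called, Slc2a1 (54.0% GC) at -0.57 and Slco1a4 (40.3% GC) at -0.92, while Cdh5 (52.2% GC) was at 1.57. Cldn5, Slc2a1, Slco1a4 and Cdh5 kept their direction and call under all 11 alternatives tried for this pair. Some of these could hardly change the result. Other count filters and another pseudocount left the ratios almost as they were, and a rule by fold alone could not remove a call. The part of the GC shift and of the mitochondrial share in these ratios was not tested beyond these adjustments.

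**Figure D3:**
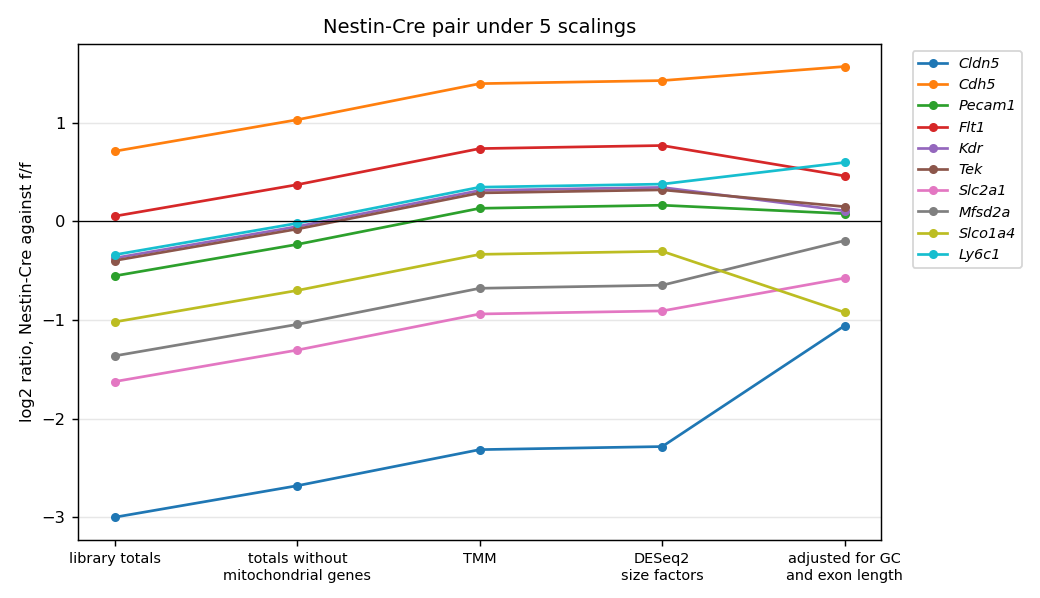
Log2 ratio of each of the 10 genes in the Nestin-Cre pair under 5 ways of scaling the counts, with 1 line per gene. Cldn5, Slc2a1, Mfsd2a and Slco1a4 stay below 0 and Cdh5 stays above 0 throughout, whereas Pecam1, Kdr, Tek and Ly6c1 cross from below to above 0.

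In the plot of scalings, all but the GC and length adjustment shift every line by the same amount, so the order of the lines cannot change among them. The GC and length adjustment raised Cldn5 most among the 10. Ratios between members within a library need no scaling of the libraries, although an adjustment by GC content and length changes them. There were 1.93 Cldn5 counts per Cdh5 count in f/f (1.72 to 2.16) and 0.147 with Nestin-Cre (0.119 to 0.180). The log2 ratios of the 2 genes in this pair differed by -3.71, and by -2.63 after the GC and length adjustment. In the other libraries the count ratio was 1.54 (f/f) and 1.56 (Olig2-Cre), and 1.64 (WT) and 2.58 (Fto Tg). Cldn5 to Pecam1 behaved alike, at 0.280 with Nestin-Cre (0.224 to 0.348) and 1.24 to 1.98 elsewhere, with a difference of log2 ratios of -2.45, or -1.13 adjusted. Slc2a1 to Flt1 was 0.362 with Nestin-Cre (0.336 to 0.390) and ranged from 1.16 to 2.55 in the other 5 libraries, and their log2 ratios in the Nestin-Cre pair differed by -1.68, or -1.03 adjusted. Kdr to Flt1, the 2 VEGF receptors, was 0.232 with Nestin-Cre (0.212 to 0.254), within the range of the 3 controls, 0.218 to 0.315.

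As shares of the summed counts of the 10 genes, Cdh5 held 3.36% to 3.62% in 5 libraries and 9.38% with Nestin-Cre, where it ranked 4 instead of 9 or 10. Cldn5 held 5.18% to 8.73% in those 5 libraries and 1.37% with Nestin-Cre, the smallest share there. Flt1 took the first rank from Slc2a1 in this library, with 33.6% against 14.9% to 20.5% elsewhere, and Slc2a1 held 12.2% against 23.7% to 37.9%.

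**Figure D4:**
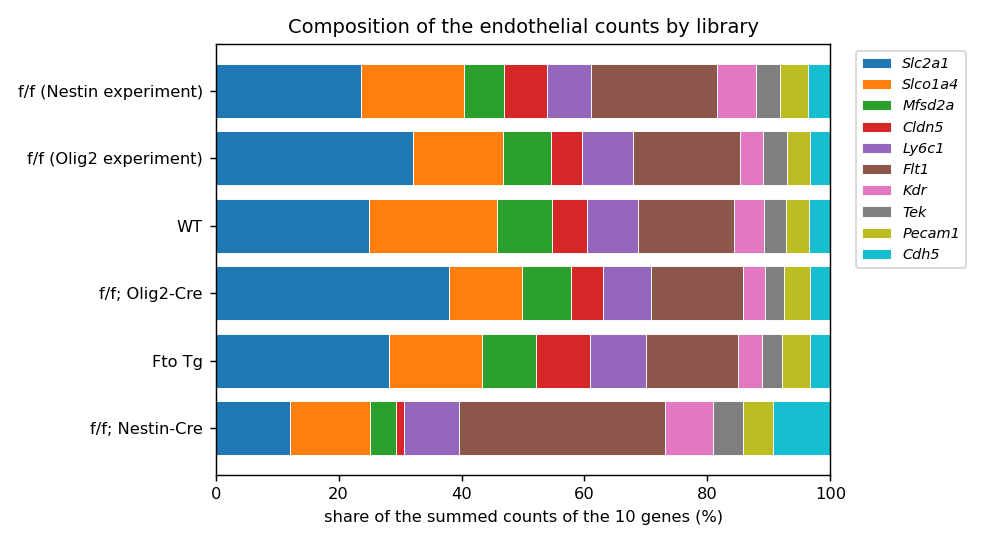
Share of each gene in the summed counts of the 10 genes, in percent, with 1 bar per library. The Nestin-Cre bar differs from the other 5 by a larger share of Flt1 (33.6%) and Cdh5 (9.38%) and a smaller share of Slc2a1 (12.2%) and Cldn5 (1.37%).

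The plot of shares also shows spread among the 5 other libraries, in which Slco1a4 held 11.9% to 20.8%.

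In the Olig2-Cre pair, 3 of the 10 genes were called higher and 0 lower, where 4.95% of 17742 genes were called higher and 6.91% lower. Slc2a1 was at 0.49 (0.42 to 0.56), a 1.41-fold higher level, Pecam1 at 0.43 (0.23 to 0.64) and Mfsd2a at 0.29 (0.14 to 0.44). The other 7 genes were not called and lay between -0.04 for Slco1a4 and 0.28 for Cldn5. The median was 0.23 for the 10 genes and 0.00 for all genes. No member was called with a test that used the dispersion of the 3 controls (edgeR exact test). The share of all genes called by that test is not given here, so this count shows nothing particular to the members. Mfsd2a lost its call with the GC and length adjustment (0.15), and Pecam1 lost it against the other f/f library (0.26).

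In the Fto pair, 4 of the 10 genes were called higher and 1 lower, where 6.97% of 18051 genes were called higher and 8.51% lower. Cldn5 had the highest ratio, 0.75 (0.61 to 0.90), a 1.69-fold higher level, and 96.4% of all genes had a lower one. Pecam1 was at 0.40 (0.21 to 0.58), Slc2a1 at 0.33 (0.26 to 0.40) and Ly6c1 at 0.32 (0.20 to 0.45). Slco1a4 was called lower at -0.29 (-0.37 to -0.20), but against the mean of the 3 controls it was at 0.04. Cdh5 (0.10), Tek (0.09), Flt1 (0.09), Mfsd2a (0.13) and Kdr (-0.18) were not called. The median of the 10 genes was 0.11 and that of all genes -0.01. Again no member was called with the dispersion of the controls, with no share of all genes given for that test. Slc2a1 lost its call with the GC and length adjustment (0.24) and against the mean of the controls (0.29), and Ly6c1 lost it with that adjustment (0.16).

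Of the members called in the Olig2-Cre or Fto pair, Slc2a1, Mfsd2a, Slco1a4 and Ly6c1 differed by a similar size between control libraries. Cldn5, at 0.75 in the Fto pair, was at -0.32, -0.14 and 0.18 between controls. Pecam1, at 0.43 with Olig2-Cre and 0.40 in Fto Tg, was at -0.18, -0.15 and 0.03 between controls. Between the 2 f/f libraries, Slc2a1 (0.54), Mfsd2a (0.34) and Ly6c1 (0.31) were called higher in the control of the Olig2-Cre pair (6.11% of all genes), and Kdr (-0.64) and Cldn5 (-0.32) lower (7.01%). Against the control of the Nestin-Cre pair, WT had Mfsd2a (0.54), Slco1a4 (0.44) and Ly6c1 (0.33) called higher and 0 lower, where 8.38% and 8.92% of all genes were called. Against the control of the Olig2-Cre pair, WT had Slco1a4 (0.53) and Kdr (0.40) called higher (3.21% of all genes) and Slc2a1 (-0.34) lower (3.99%). Every transport gene was thus called between some controls. Cdh5, Pecam1, Flt1 and Tek never were. Over the 3 controls the SD of log2 CPM was 0.054 for Cdh5, 0.059 for Tek, 0.097 for Pecam1 and 0.13 for Flt1, and it was 0.16 for Cldn5, 0.19 for Ly6c1, 0.27 for Slc2a1 and Mfsd2a, 0.28 for Slco1a4 and 0.33 for Kdr. The median SD of 20506 genes was 0.19.

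The range of the 3 controls gave a second yardstick, with no test and with controls shared by the 3 comparisons. The Olig2-Cre library lay above it for 5 genes (Cdh5, Pecam1, Slc2a1, Mfsd2a and Ly6c1) and below it for 1 (Slco1a4), where 28.7% of all genes lay above and 29.1% below. Fto Tg lay above it for 5 genes (Cldn5, Cdh5, Pecam1, Mfsd2a and Ly6c1) and below it for 0, with 27.3% and 29.7% of all genes. The Nestin-Cre library lay below it for 7 genes and above it for Cdh5 and Flt1, with 66.3% and 17.6% of all genes. With TMM scaling, an alternative added after the values had been seen, it lay below for 4 genes and above for 6, with 42.4% of all genes below and 38.6% above.

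The only contrast with more than 1 library per arm set both Cre libraries against both f/f libraries (n = 2 each, edgeR quasi-likelihood test). Its Cre arm holds 2 different genotypes and not replicates of 1. The main fit did not pair each Cre library with its own control. It called 0% of 16921 genes (0 genes), with 143 at an unadjusted p under 0.05 and 3 called by DESeq2, and no member among them. Adjusted p-values of the 10 genes in the edgeR quasi-likelihood test ranged from 0.955 to 0.987. Cdh5 had the largest difference, a log2 fold change of 0.94 (SE 0.47), and Cldn5 was at -0.62 (SE 0.75). The biological coefficient of variation was 0.399 in this fit and 0.133 over the 3 controls. The spread in this fit includes the difference between the 2 Cre genotypes, so the lack of calls says nothing about either deletion alone. Without the Olig2-Cre library, which leaves Nestin-Cre as the lone Cre library with a spread taken from the f/f libraries, 8480 of 17747 genes (47.8%) were called. The 5 of the 10 members called there, a share like that of all genes, were Cldn5, Slc2a1 and Mfsd2a (lower) and Cdh5 and Flt1 (higher). Without the Nestin-Cre library 2 genes and 0 members were called.

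The other endothelial genes were examined in lists. Their ratios, like those of all later lists, are given with library totals only. Values under TMM scaling or the GC and length adjustment, which moved the member ratios in the Nestin-Cre pair, are not given. Of 20 further endothelial identity genes, 13 were called lower and 4 higher in the Nestin-Cre pair, with a median of -0.79 near that of all genes (-0.72). The same rule called 53.4% of all genes lower there and 11.5% higher. In each of the other pairs, 2 genes of this list were called higher and 0 lower. Among all genes, higher calls made up 4.95% (Olig2-Cre) and 6.97% (Fto), and lower calls 6.91% and 8.51%. Egfl7, a secreted endothelial protein, was at 1.27 CPM with Nestin-Cre and 19.1 CPM in f/f (log2 ratio -3.90), a lower ratio than that of Cldn5. Nos3, the endothelial nitric oxide synthase, was at -2.33 and the transcription factor Sox18 at -2.26. The 4 called higher, named after their values were seen, were the ETS factor Erg (1.32), the receptor Adgrf5 (1.01), Cd93 (0.66) and the sialomucin Emcn (0.56). Endothelial identity genes thus lay on both sides of 0 in this library, like the 10 members. With Olig2-Cre, Vwf (von Willebrand factor) was at 0.65 and Eng (endoglin) at 0.38, and in Fto Tg Itm2a was at 0.45 and Eng at 0.35. The f/f control of the Olig2-Cre pair was the lowest of the 3 controls for both Vwf (15.5 CPM against 24.2 and 32.4) and Eng (17.4 CPM against 19.3 and 22.6). The summed level of the list was 306 CPM with Nestin-Cre and 326 to 397 CPM elsewhere.

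Of 10 further tight junction genes, 5 were called lower and 2 higher with Nestin-Cre, and 2 were lower in the Olig2-Cre pair and 1 in the Fto pair. With Nestin-Cre the share called lower was near that of all genes (53.4%), and the list median was -0.43 against -0.72. Of all genes, 11.5% were called higher there, and 6.91% and 8.51% were called lower in the Olig2-Cre and Fto pairs. Esam, an endothelial adhesion molecule, was at 2.93 CPM with Nestin-Cre and 13.0 CPM in f/f (-2.14), and Lsr of tricellular junctions was at -0.79. Tjp1 (the scaffold ZO-1, also made in other cell types) was at 229 CPM with Nestin-Cre against 123 CPM in f/f (0.90), and it was called lower with Olig2-Cre (-0.42) and in Fto Tg (-0.38). Its 3 controls lay between 118 and 124 CPM. Cldn12, the other gene called lower with Olig2-Cre (-0.30), was also called higher with Nestin-Cre (0.49).

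Of 12 further barrier transporters, 9 were called lower and 0 higher with Nestin-Cre, with a median of -0.80. Over all genes, 53.4% were called lower and 11.5% higher, and the median was -0.72. Slc16a1, the lactate transporter Mct1, was at -1.57, the iron exporter Slc40a1 at -1.40 and the drug efflux pump Abcg2 at -1.07. With Olig2-Cre, 1 was called higher, Slc3a2 (0.28), the partner chain of amino acid transporters. In Fto Tg, 2 were called higher and 3 lower, among them Slc16a4 (-0.49), the efflux pump Abcb1a (-0.35) and the transferrin receptor Tfrc (-0.32). Of all genes, 4.95% were called higher in the Olig2-Cre pair, and 6.97% higher and 8.51% lower in the Fto pair. For Tfrc the f/f libraries themselves were at 174 and 113 CPM.

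Of 9 ligands and co-receptors of VEGF and angiopoietin signaling, 4 were called lower with Nestin-Cre and 2 higher, where 53.4% and 11.5% of all genes were called, and the list median was -0.54 against -0.72. Vegfb was at 16.7 CPM against 54.0 CPM in f/f (-1.69), Vegfc at -1.22 and Flt4, the VEGF-C receptor, at -0.82. The 2 called higher, named after their values were seen, were the co-receptor Nrp1 (0.44) and the Tek ligand Angpt1 (0.50). With Olig2-Cre 0 were called, and in Fto Tg only Angpt1 was, at -0.57. The 15 genes of the Wnt barrier program summed to 278 CPM with Nestin-Cre and 658 to 690 CPM elsewhere. Most of that difference was Ctnnb1 (beta-catenin, used by many cell types, named after its values were seen), at 104 CPM against 383 CPM in f/f, and the other 14 genes summed to 174 CPM with Nestin-Cre and 263 to 298 CPM elsewhere. Of the 15, 12 were called lower there and 0 higher, where 53.4% of all genes were called lower and 11.5% higher. Their median was -0.87 against -0.72. The ligands Ndp (-2.39) and Wnt7b (-2.34) and the transcription factor Foxf2 (-2.25) had the lowest ratios. In the other pairs the co-receptor Lrp6 was called lower, at -0.38 with Olig2-Cre and -0.40 in Fto Tg, and Wnt7a higher in Fto Tg at 0.41. Of all genes, 6.91% were called lower in the Olig2-Cre pair, and 8.51% lower and 6.97% higher in the Fto pair. Of 6 genes of permeable or activated endothelium, 4 had enough counts to be tested, and only Plvap, the diaphragm protein of fenestrated vessels, was called, at -2.79 with Nestin-Cre (1.04 CPM against 7.27 CPM).

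**Figure D5:**
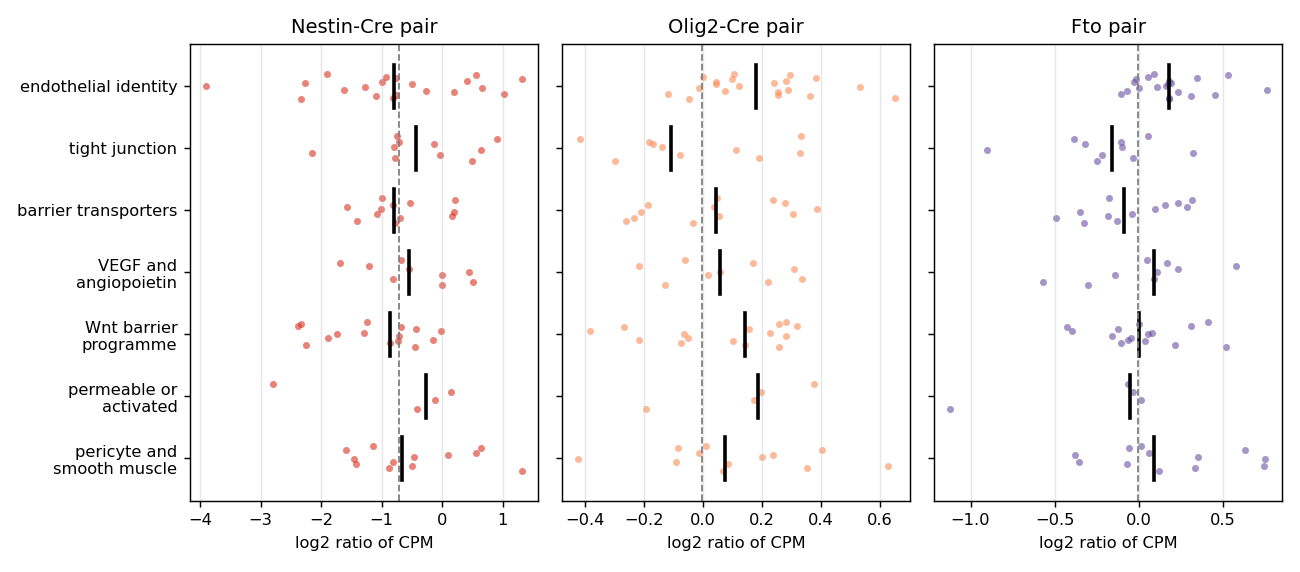
Log2 ratios in the 3 pairs for the genes of 7 further lists, with 1 point per tested gene, a black bar at the median of the list and a dashed line at the median of all genes tested. The scales of the 3 panels differ, and in the Nestin-Cre pair the medians of the lists lie between -0.87 and -0.27, on both sides of the median of all genes at -0.72.

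The plot of the further lists also shows 12 pericyte and smooth muscle genes, cells that wrap the same vessels. With Nestin-Cre 8 were called lower, among them Kcnj8 (-1.58), Higd1b (-1.46) and Notch3 (-1.43), and 3 higher, which were Myh11 (1.31), Rgs5 (0.63) and Abcc9 (0.55), named after their values were seen. The list median was -0.66, near that of all genes, of which 53.4% were called lower and 11.5% higher. The summed level was 278 to 311 CPM in all libraries, but without Rgs5 it was 125 CPM with Nestin-Cre and 162 to 185 CPM elsewhere. Acta2, smooth muscle actin, was called higher with Olig2-Cre (0.63) and in Fto Tg (0.74). In Fto Tg, Vtn (0.35) was also called higher and Atp13a5 (-0.36) lower. Of all genes, 4.95% were called higher in the Olig2-Cre pair, and 6.97% higher and 8.51% lower in the Fto pair.

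Markers of other tissue also differed between libraries, with the members in some pairs and against them in others. The 6 choroid plexus markers, from an epithelium with fenestrated vessels at the edge of the hippocampus, summed to 268 CPM with Nestin-Cre, 695 CPM in Fto Tg, 1651 CPM in WT, 2190 and 2882 CPM in the f/f libraries and 3428 CPM with Olig2-Cre. All 6 were called lower with Nestin-Cre (Ttr -3.68) and in Fto Tg (Ttr -1.25), and Olig2-Cre had 4 of them called higher (Ttr 0.67). In the Fto pair these markers fell while 4 of the members rose. The 5 blood markers summed to 2.07 CPM with Nestin-Cre and 7.47 to 19.3 CPM elsewhere, with 4 called lower in the Nestin-Cre pair (Hbb-bs -2.88) and 0 in the others. Of 7 fibroblast and meningeal genes, 4 were called lower with Nestin-Cre (Col3a1 -1.79), 1 higher with Olig2-Cre (Dcn 0.60) and 1 higher in Fto Tg (Slc6a13 0.53). The list median with Nestin-Cre was -1.26. Its sum was 269 to 311 CPM in all libraries, but without Igf2, likewise named afterwards, it was 78.0 CPM with Nestin-Cre and 130 to 164 CPM elsewhere. Over all genes, 53.4% were called lower with Nestin-Cre and 8.51% in the Fto pair. Called higher were 4.95% with Olig2-Cre and 6.97% in the Fto pair. No defining marker of these 3 lists was at 0 in any library. The part of these tissues in the endothelial values was not tested.

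The 5 other genes whose profile over the 6 libraries was nearest to the mean profile of the 10 were Snx3, H2afy, Lrrtm1, Dctn5 and Abcf3. Their root mean square difference in centered log2 CPM was 0.024 to 0.035, among 11645 genes with a mean of at least 5 CPM. The members themselves lay 0.145 (Ly6c1) to 0.823 (Cldn5) from their own mean. The 5 genes were chosen for this nearness, and nothing follows from it about the members.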

How the data were processed

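RNA-seq libraries of hippocampus (6, 1 per group) were grouped by titles and genotype labels. The deposited files hold whole-number read counts per gene, not normalized by the authors. In the study's methods, reads were trimmed with Cutadapt and Trimmomatic and aligned to mm10 with TopHat (TopHat2 2.0.9 in the submitters' processing notes). Unique reads with a mapping quality of at least 20 were counted by the authors with HTSeq (0.6 in those notes) in union mode without strand, on Ensembl release 68, so ambiguous reads were lost and overlapping antisense genes cannot be told apart. The sources differ on whether reads were paired.

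Counts were scaled to library totals (CPM). GENCODE M21 (GRCm38) gave exon lengths, coordinates and longest-transcript GC content. The read test followed the MARS formulas of DEGseq, which the study used, programmed in Python 3.11.15 (numpy 2.4.6, pandas 2.3.3, scipy 1.17.1): 0.5 was added to each count, a minimum of 10 counts over both libraries was required, and calls needed a Benjamini-Hochberg FDR under 0.001 and a fold of at least 1.2. Ratio intervals are exact conditional 95% intervals. The replicated contrast used edgeR 4.0.16 (R 4.3.3; TMM, filterByExpr, FDR under 0.05) with DESeq2 1.42.0 as an alternative. On simulated data with 200 changed genes, the read test recovered 199, 195 and 200 in the Nestin-Cre, Olig2-Cre and Fto pairs (18148, 17716 and 18101 genes), with 0 false calls. The simulated counts were Poisson draws with no variation between libraries, as the test assumes. The simulation therefore checks the formulas and cannot show how often real libraries give false calls.

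The 10 genes and all lists were chosen with earlier results of these data known. Named beyond them were Prrc2a, Fto, close relatives of members, up to 3 called genes per list and pair with the largest log2 ratio in size and at least 100 counts over the pair, and the 5 genes nearest in profile. Alternatives were other scalings, a GC and length adjustment, pseudocount, count filters, call rules and controls.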

Additional observations from a re-analysis of the deposited data

Results flagged for a closer look

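Of the 10 endothelial genes, 3 were called in opposite directions in the 2 Prrc2a deletions. Slc2a1 had a log2 ratio of -1.62 with Nestin-Cre and 0.49 with Olig2-Cre, Mfsd2a one of -1.36 and 0.29, and Pecam1 one of -0.55 and 0.43. Each direction rests on 1 library against 1 control, and the difference between the deletions was not tested. Over the 17282 genes tested in both pairs, 5.77% were called in opposite directions, and of the 872 called higher with Olig2-Cre, 84.4% were called lower with Nestin-Cre. With TMM scaling Pecam1 was at 0.13 in the Nestin-Cre pair, so that the opposite directions held there for Slc2a1 and Mfsd2a only. With the GC and length adjustment Mfsd2a was called in neither pair, at -0.19 and 0.15. With the edgeR exact test none of the 3 was called in the Olig2-Cre pair, so no opposite call held. The share of all genes called by that test is not given here, so this count shows nothing particular to the 3 genes. Against the other f/f library, Pecam1 (0.26) was not called in the Olig2-Cre pair either.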

How the results depend on the processing

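In the Nestin-Cre pair, 1 member was called higher and 8 lower. These counts were 4 and 4 with TMM, 4 and 4 with DESeq2 size factors, 3 and 3 with the GC and length adjustment, and 2 and 4 with totals without mitochondrial genes, and 4 were lower with the edgeR exact test. Over all genes, calls higher and lower were 2097 and 9699 with library totals, 5185 and 5465 with TMM, 5370 and 5281 with DESeq2 size factors, 4929 and 4963 with the GC and length adjustment, and 3353 and 7664 without mitochondrial genes. Calls over all genes with the exact test are not given here. With TMM, the GC and length adjustment and DESeq2 size factors, the log2 ratio reversed to 0.13, 0.078 and 0.16 for Pecam1, 0.31, 0.11 and 0.34 for Kdr, 0.29, 0.15 and 0.32 for Tek, and 0.35, 0.60 and 0.38 for Ly6c1. Kdr was also at 0.27 against the other f/f library. In the Olig2-Cre pair, 0 members were called higher with the exact test, and against the other f/f library 1 was called lower and Kdr reversed to -0.48. In the Fto pair, 0 were called lower with the GC and length adjustment, DESeq2 size factors, the exact test and the mean of the controls, 0 were called higher with the exact test, and Slco1a4 reversed to 0.037 against that mean. Over all genes in the Fto pair, 1537 of 18051 were called lower with library totals and 1264 with DESeq2 size factors. With the GC and length adjustment it was 718 of 17750. For the other settings of the Olig2-Cre and Fto pairs named here, shares of all genes are not given. These small counts therefore show nothing particular to the members. TMM, added after the values were seen, put 6 members above and 4 below the control range with Nestin-Cre (38.6% and 42.4% of all genes). The member ratios kept direction and call in 83 of 110 alternatives for the Nestin-Cre pair, 101 of 110 for the Olig2-Cre pair and 87 of 100 for the Fto pair. These tallies include changes of count filter and pseudocount, which hardly alter ratios at the counts of the members. In the replicated Cre contrast, 2 genes were called with the experiment as a replicate block, 3 with DESeq2, and 0 to 8480 when 1 library was left out, with 0 to 5 members. The labels' numbers pair no libraries, and the block is the experiment. A lone library was assumed to vary like the others. Beyond these constructions, the cause of each change was not tested.

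Members had 107 to 4241 counts per library. With 1 library per group, the intervals hold no variation between mice, dissections or preparations, and only the 3 controls, from different experiments, show its size. For Cdh5, Tek, Pecam1, Cldn5, Flt1 and Ly6c1 the counting intervals were wider than the SD between the controls in all 3 pairs. For Kdr and Mfsd2a this held in some pairs only, and for Slc2a1 and Slco1a4 it held in no pair. An interval of a ratio between libraries and an SD of single libraries are unlike measures, so no error source can be called larger.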

Other observations

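Microglia, astrocyte and neuron markers, which belong to no comparison above, were counted by the same rule. Of 6 microglial genes, 3 were called lower with Nestin-Cre (C1qa -1.76, Tmem119 -1.73, Csf1r -1.02) and 1 higher. Over all genes, 53.4% were called lower and 11.5% higher, and the list median was -0.59 against -0.72 for all genes. C1qa was called higher with Olig2-Cre (0.37) and in Fto Tg (0.47), where C1qb (0.41) was as well. Of 5 astrocyte genes, 2 were called higher with Nestin-Cre, among them Aqp4 (0.76), the water channel of the endfeet that cover brain vessels, and 1 lower, Gjb6 (26.7 CPM against 53.3 CPM). Slc1a2, a glutamate transporter, was called lower with Olig2-Cre (-0.38) and in Fto Tg (-0.38). Of 6 hippocampal neuron genes, 2 were called higher with Nestin-Cre, among them Neurod6 (2.26), and 2 lower, Slc17a7 (-1.92) and Wfs1 (-1.62). Cell types other than endothelium thus also had members on both sides of 0 in the Nestin-Cre library.

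Without the Nestin-Cre library, the genes nearest to the mean profile of the 10 members over the other 5 libraries were Psma3, Scamp5, Snx3, Xrcc1 and Bloc1s2, at root mean square differences of 0.013 to 0.017. Snx3 was in both sets of 5. Among the members, Cdh5 then lay nearest to the mean profile (0.040) and Slc2a1 farthest (0.303).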
